A study of Mus musculus with 12 samples.

Results

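The genes described here are 10 regulators of the passage from the G1 phase into DNA synthesis, chosen by name among the 47069 genes of the count table: the transcription factors E2f1, E2f2, E2f7 and E2f8, the cyclins Ccnd1, Ccne1 and Ccne2, and the inhibitors of cyclin-dependent kinases (CDKs) Cdkn2a, Cdkn2b and Cdkn1b. They were measured by RNA sequencing in 12 libraries, 3 in each of 4 groups: LGR5+ and LGR5- cells, each from untreated and from 5-fluorouracil (5-FU)-treated cultures. All cells came from organoids grown out of diethylnitrosamine-induced liver tumors of C57BL/6 mice that carry the Lgr5-DTRGFP allele, in which the diphtheria toxin receptor and green fluorescent protein are made under control of the Lgr5 locus, so that controls carry it too. LGR5+ and LGR5- are names of the sort by this fluorescence, made after removal of dead cells and of CD45+ leucocytes. 5-FU blocks thymidylate synthesis. Its dose and time for these libraries are not stated in the labels. The labels do not say whether the 3 libraries of a group came from separate cultures or animals, so p-values measure the spread between these libraries, which may be technical.

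Entry into S phase is controlled by the retinoblastoma protein, which holds E2F factors inactive. D-type cyclins with CDK4 or CDK6 begin to phosphorylate it, cyclin E with CDK2 completes this, and the freed activators E2F1 and E2F2 switch on genes of DNA replication, including the cyclin E genes and E2f7 and E2f8. E2F7 and E2F8 are atypical members that repress the same targets. The products of Cdkn2a and Cdkn2b inhibit CDK4 and CDK6, that of Cdkn1b inhibits CDK2, and Cdkn2a also encodes an activator of p53 in another reading frame.

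Library totals ran from 13750591 to 19323514 reads. Levels are given as counts per 1000000 reads (CPM) after scaling by trimmed mean of M values (TMM), and 3 reads, the limit that a count of 0 allows, stood for 0.165 to 0.22 CPM. A gene was called changed when its adjusted P in the edgeR quasi-likelihood test over 16157 genes was under 0.05. Lgr5 itself lay at 23.35 to 27.49 CPM in the libraries labelled LGR5+ and at 18.27 to 36.04 CPM in those labelled LGR5-, so that it did not separate them. The epithelial and bile duct markers looked for were present in every library, whereas the 6 hepatocyte markers summed to 11.2 to 56.8 CPM, with Hnf4a at 0 in 11 of 12 libraries and Alb at no more than 1.86 CPM, and the alveolar marker Sftpc was at 2620 to 17300 CPM. Of the leucocyte list, 0 of 5 markers passed the 3-read limit in every library, and their summed level was 0.439 to 2.36 CPM. Mitochondrial transcripts took 1.47 to 3.08% of reads in 10 libraries but 6.93% in untreated and 6.44% in 5-FU-treated LGR5- replicate 3.

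Of the 10 regulators, 8 passed the filter on low counts, and Cdkn2a and Cdkn2b had no read in any library. The members called with 5-FU were Ccnd1, E2f1, E2f7 and E2f8. Ccnd1 rose in LGR5+ and LGR5- cells, to 2.81 and 2.3 times the untreated level. E2f1, E2f7 and E2f8 fell in LGR5- cells, and in LGR5+ cells they were lower without passing the test. In LGR5+ cells 1 of 8 tested members was called, beside 16% of all genes tested, which is not a result about the members. In LGR5- cells 4 of 8 were called, beside 15.4% of all genes tested: 3 were lower, beside 7.11%, and 1 was higher, beside 8.3%. The treated and untreated groups stood apart for 1 member higher and 3 lower in LGR5+ cells, beside 22.3% and 20% of genes, and for 1 higher and 4 lower in LGR5- cells, beside 13.7% and 13.4%. No gene was called between LGR5+ and LGR5- cells in either condition by this test.

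**Figure D1:**
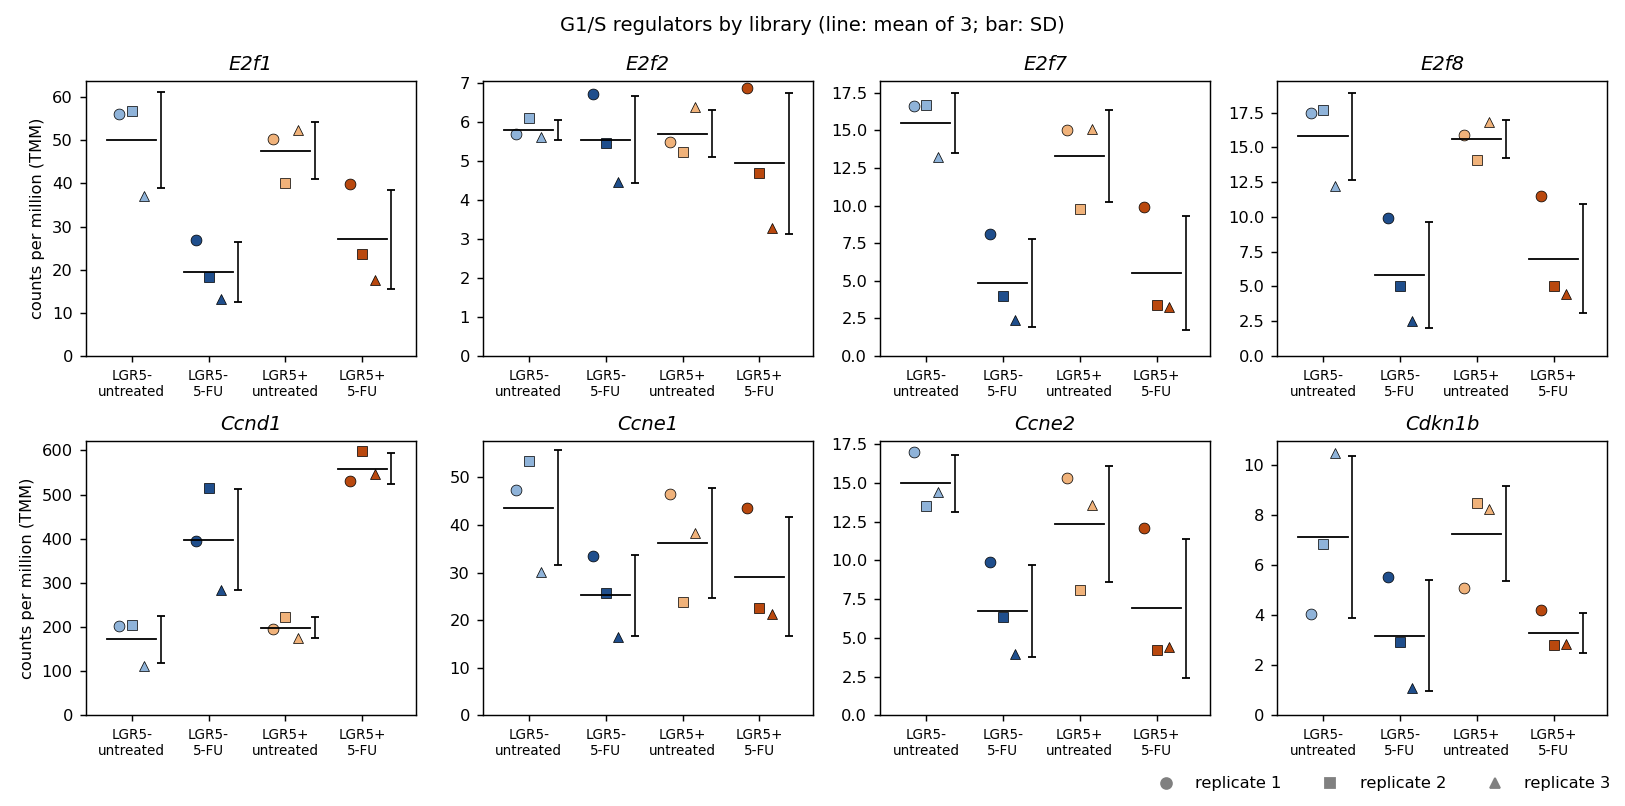
Level of each of the 8 tested members (y axis, CPM after TMM scaling, from 0) in the 12 libraries, by group. Symbols mark the replicate numbers, lines the means of 3 and bars the SD. The 6 untreated libraries sit at 111 to 224 CPM of Ccnd1 and the 6 treated ones at 285 to 598, whereas E2f1 runs from 37.1 to 56.9 CPM in the untreated and from 13.2 to 39.9 in the treated libraries.

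E2f1 (ENSMUSG00000027490) lies on the minus strand at chr2:154559407-154569892, by GENCODE M21 on GRCm38, the annotation used for the positions of genes here, while promoter windows follow RefSeq starts. In untreated LGR5- cells it was at 56.2, 56.9 and 37.1 CPM in replicates 1, 2 and 3, and in 5-FU-treated LGR5- cells at 26.8, 18.4 and 13.2 CPM. These groups did not overlap, and E2f1 fell by 1.36 ± 0.30 (SE) on the log2 scale, 2.56-fold (adjusted P = 0.00758). E2f1 in LGR5+ cells was at 50.4, 40.1 and 52.3 CPM untreated and at 39.9, 23.7 and 17.7 CPM with 5-FU. Every treated library was below every untreated one there too, though treated replicate 1 lay just under untreated replicate 2, and the log2 fold change of -0.81 ± 0.30 did not pass (adjusted P = 0.0802). In these bulk samples, fewer cells in the phase that makes a transcript and less of it per cell cannot be told apart.

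E2f2 (ENSMUSG00000018983, chr4:136172394-136196057, plus strand), the other activator, was not called. It was at 5.7, 6.09 and 5.61 CPM in untreated and 6.71, 5.45 and 4.47 CPM in treated LGR5- cells. The LGR5+ cells had 5.49, 5.22 and 6.39 CPM untreated and 6.86, 4.68 and 3.27 CPM with 5-FU. In both populations the treated libraries lay on either side of the untreated ones. The log2 fold change was -0.06 (95% interval -0.66 to 0.53) in LGR5- and -0.21 (-0.80 to 0.39) in LGR5+ cells, so that changes of the size seen for E2f1 in LGR5- cells lie outside both intervals. The counts are low, at 56 to 122 reads per library.

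E2f7 (ENSMUSG00000020185, chr10:110745439-110787384, plus strand) and E2f8 (ENSMUSG00000046179, chr7:48866429-48881596, minus strand) are the atypical repressors. E2f7 went from 16.6, 16.7 and 13.2 CPM to 8.12, 3.98 and 2.42 CPM in LGR5- cells, and it was the member with the largest fold there, lower by 3.18-fold. Its log2 fold change was -1.67 ± 0.44 (adjusted P = 0.0205), and it alone among the members also passed the thresholds of the study (unadjusted P under 0.05 and absolute log2 fold change over 1.5), beside 7% of all genes tested. In LGR5+ cells E2f7 was at 15, 9.77 and 15.1 CPM untreated and 9.89, 3.36 and 3.27 CPM treated. Here untreated replicate 2 and treated replicate 1 met, and the difference of -1.27 ± 0.44 did not pass (adjusted P = 0.0646). By the study's thresholds 0 members passed in LGR5+ cells, beside 7.23% of genes.

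E2f8 was at 17.5, 17.7 and 12.2 CPM in untreated and 9.95, 5.04 and 2.49 CPM in treated LGR5- cells, which do not overlap. It fell by 1.43 ± 0.42 on the log2 scale (adjusted P = 0.033). In LGR5+ cells it was at 15.9, 14.1 and 16.8 CPM untreated and 11.5, 5.01 and 4.44 CPM with 5-FU. The difference of -1.16 ± 0.41 did not pass although the groups stood apart (adjusted P = 0.0722). Opposite-strand genes share 86 exon bases of E2f7 (0.955%) and 610 of E2f8 (11.2%), and strand use in the counting is not stated. Those genes had at most 2 and 83 reads in a library, against 33 to 305 for E2f7 and 34 to 322 for E2f8. Without strand, reads from the shared bases cannot be told apart.

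E2f7 and E2f8 are known E2F target genes and both fell in LGR5- cells, so the 250 bases before their RefSeq starts are shown. E2f7 (chr10:110745189-110745438, plus strand) and E2f8 (chr7:48881597-48881846, minus strand) are printed 5′ to 3′ from RefSeq sequence of build GRCm38.p6. For E2f2, the 30 bases at chr4:136172294-136172323 (plus strand), after its RefSeq start, are given for comparison. Capitals mark an E2F core, searched on both strands as TTCCCGC, then as TTCGCGC, then as TTGGCGC and then as TTGCCGC.
E2f7: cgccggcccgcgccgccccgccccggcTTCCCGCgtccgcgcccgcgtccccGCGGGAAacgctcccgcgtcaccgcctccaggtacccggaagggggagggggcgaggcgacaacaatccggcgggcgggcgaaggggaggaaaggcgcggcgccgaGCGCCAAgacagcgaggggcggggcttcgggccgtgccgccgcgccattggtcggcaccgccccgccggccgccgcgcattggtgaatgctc
E2f8: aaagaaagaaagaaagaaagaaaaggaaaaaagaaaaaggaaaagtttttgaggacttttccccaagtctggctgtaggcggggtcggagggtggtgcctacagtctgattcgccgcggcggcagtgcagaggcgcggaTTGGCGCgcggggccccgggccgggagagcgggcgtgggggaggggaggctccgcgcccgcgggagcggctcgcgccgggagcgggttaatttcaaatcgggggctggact
E2f2: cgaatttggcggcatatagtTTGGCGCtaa
E2f7 has matches 223, 198 and 92 bases before its start, and E2f8 has 1 match 111 bases before it, which shares bases with a CCAAT box on the other strand. The window of E2f2 has 1 match 40 bases after its RefSeq start, which lies upstream of its GENCODE start, as does the match. Of 32851 RefSeq windows of 300 bases (250 before to 50 after a start), 9.57% hold such a core. G and C make up 79.2% of the printed bases of E2f7, 62.4% of those of E2f8 and 46.7% of those of E2f2. The share among windows of like composition was not counted. Among the 8 members with a RefSeq window, Ccne1, Cdkn1b and Cdkn2b have no match, Cdkn2a has 1 at 98 bases before its upstream start, and the window listed for E2f1 lies downstream of its GENCODE start, with no match. The cell cycle homology region (TTTGAA, either strand) was found in E2f8 20 bases before its start, in Cdkn2b 161 bases before and in a downstream window of E2f2 31 bases before, against 17.9% of all windows. A CCAAT box was in windows of E2f2, E2f7, E2f8, Cdkn1b and Cdkn2a, and in 37.4% of all. These letters are a description and no sign of binding.

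Among the cyclins Ccnd1 rose, and neither E cyclin was called. Ccnd1 (ENSMUSG00000070348, chr7:144929931-144939925, minus strand) encodes cyclin D1, the partner of CDK4 and CDK6. In LGR5+ cells it stood at 196, 224 and 176 CPM untreated and at 531, 598 and 547 CPM with 5-FU, a rise of 1.49 ± 0.26 on the log2 scale (adjusted P = 0.00134). In LGR5- cells it stood at 203, 204 and 111 CPM untreated and at 395, 514 and 285 CPM with 5-FU, a rise of 1.20 ± 0.26 (adjusted P = 0.0061). No treated library overlapped an untreated one in either population, and replicate 3 was the lowest of both LGR5- groups. An opposite-strand gene shares 23.4% of the exon bases of Ccnd1, but it had 275 to 544 reads in a library where Ccnd1 had 2005 to 10860.

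Ccne1 (ENSMUSG00000002068, chr7:38097984-38107534, minus strand) and Ccne2 (ENSMUSG00000028212, chr4:11191351-11204779, plus strand) encode the E cyclins that activate CDK2. Ccne1 was at 47.3, 53.5 and 30.1 CPM in untreated and 33.4, 25.8 and 16.4 CPM in treated LGR5- cells. Its levels in LGR5+ cells were 46.5, 23.8 and 38.3 CPM untreated and 43.5, 22.5 and 21.4 CPM treated. The groups overlapped in both populations, with log2 fold changes of -0.79 ± 0.34 (adjusted P = 0.134) and -0.31 ± 0.33 (adjusted P = 0.579).

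Ccne2 was at 17, 13.5 and 14.4 CPM in untreated LGR5- cells and at 9.89, 6.38 and 3.96 CPM after 5-FU. These groups stood apart, yet the difference of -1.14 ± 0.40 missed the threshold (adjusted P = 0.0691). LGR5+ cells had 15.3, 8.11 and 13.6 CPM untreated and 12.1, 4.24 and 4.44 CPM treated, which overlap (log2 fold change -0.83 ± 0.40, adjusted P = 0.179). Exons of Ints8 on the other strand, with 301 to 655 reads in a library against 54 to 280 for Ccne2, share 17.4% of the exon bases of Ccne2. Without strand, reads from these bases cannot be told apart.

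The ratio of Ccnd1 reads to the sum of Ccne1 and Ccne2 reads does not depend on scaling between libraries. It was 3.15, 3.05 and 2.5 in untreated and 9.13, 16 and 14 in treated LGR5- libraries. In LGR5+ libraries it was 3.17, 7.01 and 3.39 untreated and 9.56, 22.3 and 21.1 treated. Every treated library was above every untreated one, and in both populations replicate 1 had the lowest treated ratio. The ratio of repressor to activator reads, E2f7 plus E2f8 over E2f1 plus E2f2, had means of 0.564 ± 0.0264 (SD, n = 3) in untreated and 0.398 ± 0.132 in treated LGR5- cells, and of 0.541 ± 0.0137 and 0.373 ± 0.0811 in LGR5+ cells. All 6 treated libraries were below the untreated libraries of their own population. E2f2 reads per E2f1 read went from means of 0.12 in both untreated groups to 0.295 ± 0.0445 in LGR5- and 0.185 ± 0.0125 in LGR5+ cells, without overlap in either. These ratios are descriptions, and the last was added after the levels were seen.

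**Figure D2:**
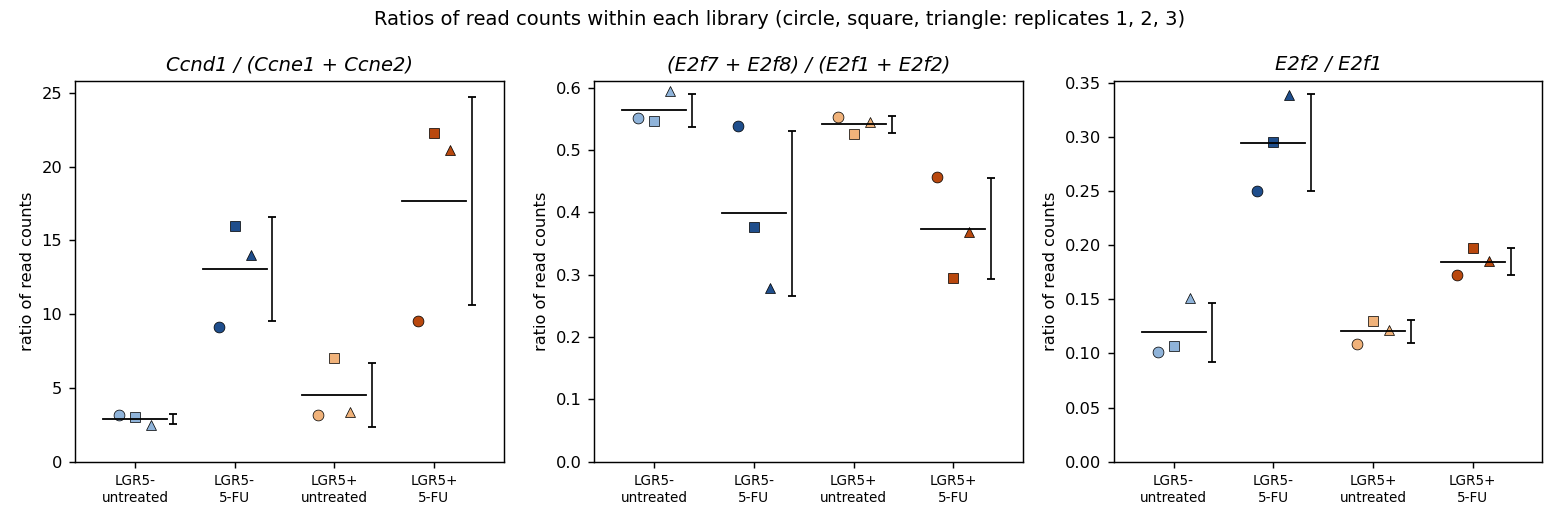
Ratios of read counts (y axes, from 0) within each of the 12 libraries, by group, with the mean and SD of 3. Ccnd1 over both E cyclins is at 2.5 to 7.01 in untreated and 9.13 to 22.3 in treated libraries. The ratio of atypical to activator E2Fs is at 0.526 to 0.594 in untreated libraries and spreads from 0.278 to 0.539 in treated ones.

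Of the inhibitors, only Cdkn1b could be measured. Cdkn1b (ENSMUSG00000003031, chr6:134920401-134925513, plus strand) encodes p27, an inhibitor of CDK2 whose protein level is set largely by degradation. It was at 4.06, 6.86 and 10.5 CPM in untreated and 5.53, 2.93 and 1.1 CPM in treated LGR5- cells. In LGR5+ cells it was at 5.08, 8.48 and 8.24 CPM untreated and 4.22, 2.81 and 2.86 CPM treated. The LGR5+ groups stood apart and the LGR5- groups overlapped, and neither difference passed the test, at -1.14 ± 0.46 (adjusted P = 0.112) and -1.15 ± 0.47 (adjusted P = 0.115). At 15 to 189 reads per library, the 95% intervals ran from -2.13 to -0.15 and from -2.15 to -0.16.

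Cdkn2a (ENSMUSG00000044303, chr4:89274471-89294653, minus strand) and Cdkn2b (ENSMUSG00000073802, chr4:89306299-89311039, minus strand) are neighbours whose products, p16 and p15, bind CDK4 and CDK6. Both were at 0 reads in all 12 libraries, treated or not, which allows up to 0.165 to 0.22 CPM per library, by counting error only. They were not tested, and the ratio of Cdkn2a to Cdkn2b could not be formed. One gene identifier covers both products of Cdkn2a, so its 0 holds for p16 and p19 transcripts alike, as far as the authors' counting went. Whether the 0 reads come from the cells or from the counting cannot be told apart in this table.

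The genes that reach into the 500 kb on either side of the Cdkn2a start were examined. Besides the pair there are 27 of them in the table, and 11 had no read, beside 41% of the whole table. Of the 14 protein-coding ones 10 had none, beside 21.3% of all protein-coding genes of the table, and all 10 start between -500.2 and -444.6 kb, among them interferon genes such as Ifna1 and Ifna4. Mtap, which encodes the methylthioadenosine phosphorylase and starts at -157.5 kb, toward lower coordinates, had 4595 to 16061 reads in every library. The noncoding Wincr1 had 147 to 961. Nearer to the pair, Gm12606, at -21.2 kb, had 1 read in 12 libraries. On the far side of Cdkn2b, Gm12609, Gm12610 and the pseudogene Gm12608 had 8, 28 and 64 reads in all, and Dmrta1, at 384.8 kb, had 2.

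**Figure D3:**
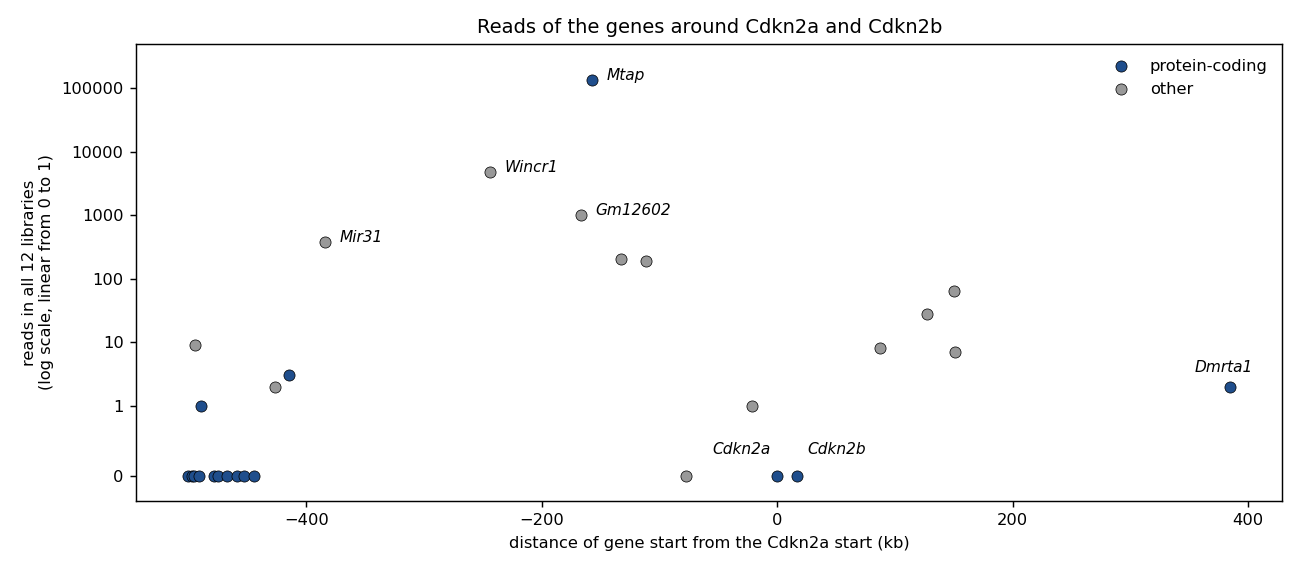
Reads summed over the 12 libraries (y axis, log scale, linear from 0 to 1) for the 29 genes that reach into the 500 kb on either side of the Cdkn2a start, by distance of their start from it (x axis, kb; negative is toward lower coordinates). Blue points are protein-coding genes and grey points others. Cdkn2a and Cdkn2b are at 0, Mtap is the highest at 136732 reads, and Dmrta1 has 2.

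Levels of different genes were compared per kilobase of merged exon (CPM per kb). In untreated LGR5- cells Ccnd1 was the highest at 36.7 ± 11.3 CPM per kb (SD, n = 3), followed by Ccne1 at 16.4 ± 4.55 and E2f1 at 15.9 ± 3.57, which did not differ beyond their spread. Ccne2 came next at 4.28 ± 0.513 and E2f8 at 2.9 ± 0.57. E2f7 at 1.72 ± 0.225 and Cdkn1b at 1.57 ± 0.709 did not differ beyond their spread. E2f2 had the lowest mean of the tested members, at 1.19 ± 0.0526 CPM per kb. Its libraries overlapped those of Cdkn1b, whose replicate 1 was at 0.892. In untreated LGR5+ cells the activator E2f1, at 15.1 ± 2.07, and Ccne1, at 13.6 ± 4.31, changed places within their spread. With 5-FU the distance between Ccnd1 and the next member widened, with 119 ± 7.37 against 10.9 ± 4.67 CPM per kb of Ccne1 in LGR5+ cells and 84.4 ± 24.3 against 9.45 ± 3.2 in LGR5- cells. In treated LGR5- cells the means of E2f7, at 0.537 ± 0.327, Cdkn1b, at 0.7 ± 0.489, and E2f8, at 1.07 ± 0.696, were below that of E2f2, at 1.14 ± 0.23 CPM per kb. Libraries of Cdkn1b and E2f8 overlapped those of E2f2, while the highest of E2f7, at 0.902, lay just under the lowest of E2f2, at 0.917.

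Between LGR5+ and LGR5- cells no member was called. Without treatment, the log2 differences of LGR5+ from LGR5- ran from -0.28 (Ccne2) to 0.20 (Ccnd1), and every adjusted P was 1. All groups overlapped, whereas 2.7% of genes were higher and 2.57% lower without overlap, and 0.458% passed the study's thresholds. No gene of the 16157 was called (0%), and 214 were under an unadjusted P of 0.05, with none called by DESeq2. After 5-FU the differences ran from -0.17 (E2f2) to 0.49 (Ccnd1), again with 0 members and 0% of genes called, with 2095 genes (13%) under an unadjusted P of 0.05. DESeq2 called 64 genes higher and 28 lower there, and none of the members. With the replicate number as a block, which pairs these treated libraries, 0 genes were called in the fit on all 12 libraries and 214 higher and 237 lower in that on the libraries compared, again with 0 members. Ccnd1 was the member whose treated groups did not overlap, at 531 to 598 CPM in LGR5+ and 285 to 514 in LGR5- cells, where 14.2% of all genes were higher and 10.2% lower without overlap and 1.7% passed the study's thresholds. Its difference of 0.49 ± 0.26 was not called (adjusted P = 0.408). Of the same-numbered treated pairs, LGR5+ was the higher in 3 of 3 for Ccnd1 and for E2f1, neither of which was called in the blocked fits. The share of all genes with this pattern was not counted, so it is not a result about these members.

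Whether the populations responded differently was tested as an interaction. No member and 0% of genes passed, with 254 genes under an unadjusted P of 0.05, none by DESeq2, and 0.427% by the study's thresholds. The difference of the log2 responses, LGR5+ less LGR5-, was 0.55 ± 0.42 for E2f1 (95% interval -0.35 to 1.45), 0.40 ± 0.62 for E2f7 (-0.92 to 1.72), 0.27 ± 0.58 for E2f8 (-0.98 to 1.51) and 0.29 ± 0.36 for Ccnd1 (-0.48 to 1.06). The 3 E2F genes called in LGR5- cells alone are thus not shown to respond differently in LGR5+ cells. For these 3 the intervals reach differences as large as their responses in LGR5- cells, whereas that of Ccnd1 stays below its response in either population.

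In both treated groups replicate 1 was the highest library for E2f1, E2f2, E2f7, E2f8, Ccne1, Ccne2 and Cdkn1b, while Ccnd1 was lowest in replicate 1 of treated LGR5+ cells. Without treated LGR5+ replicate 1, 5 members were called in LGR5+ cells, beside 14.9% of all genes tested: E2f1 (log2 fold change -1.20), E2f7 (-1.99), E2f8 (-1.72), Ccne2 and Ccnd1. In LGR5- cells the calls of E2f7 and E2f8 were lost, leaving 2 called members, E2f1 and Ccnd1, without untreated replicate 1 or 2, without treated replicate 2 or 3, or without both libraries numbered 3, whose mitochondrial share was high, beside 9.36 to 16.9% of genes. Without treated replicate 1, 6 were called there, beside 15.1% of genes, with Ccne2 (-1.53) and Cdkn1b (-1.80) added.

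Of 24 further genes of G1/S control, all passed the filter. In each population 3 rose and 9 fell, beside 9.66% (LGR5+) and 8.3% (LGR5-) of all genes tested higher and 6.37% and 7.11% lower. The median log2 fold change of the list was -0.48 in LGR5+ and -0.60 in LGR5- cells, with medians over all genes tested of -0.02 and -0.05. The count that fell in LGR5+ cells was 5 without treated replicate 2 or 3, beside 2.36% and 2.22% of all genes, where Ccna2, Cdk2, Cdkn2c and E2f3 were lost. The genes that rose in both were Cdkn1a, Ccnd2 and Rb1. Cdkn1a, which encodes the p53-induced CDK inhibitor p21, was at 720 to 969 CPM in untreated and 2830 to 3690 in treated LGR5- cells, and it rose by 1.89 ± 0.25 on the log2 scale (adjusted P = 0.000182). In LGR5+ cells it was at 892 to 1330 and 3180 to 4150 CPM and rose by 1.72 ± 0.24 (adjusted P = 0.000271).

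Ccnd2, which encodes another D cyclin, rose alongside Ccnd1, from 237, 277 and 183 to 649, 656 and 689 CPM in LGR5- cells (log2 fold change 1.51 ± 0.19, adjusted P = 0.000162) and by 1.48 ± 0.19 in LGR5+ cells (adjusted P = 0.000133). The third D cyclin gene, Ccnd3, was not called in either population (0.29 ± 0.21 and 0.34 ± 0.21). Among the pocket proteins that bind E2Fs, Rb1 rose by 0.82 ± 0.26 and 0.81 ± 0.26, and Rbl1, which encodes p107, fell by 1.34 ± 0.31 and 1.40 ± 0.31, in LGR5- and LGR5+ cells in that order. The call of Rb1 was lost without any 1 of the LGR5+ libraries and without any 1 of the LGR5- libraries other than untreated replicate 3. Rbl2 was at -0.61 ± 0.21 and -0.57 ± 0.21 and was not called.

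Cyclin A, CDK2 and the p27 ligase were among the partner genes that fell. Ccna2, the S phase cyclin, went from 179, 138 and 97.5 CPM to 50.6, 29.1 and 16.9 CPM in LGR5- cells. It fell by 2.10 ± 0.39 on the log2 scale there (adjusted P = 0.00253) and fell by 1.63 ± 0.38 in LGR5+ cells (adjusted P = 0.0091), a call lost without treated LGR5+ replicate 2 or 3 (adjusted P up to 0.0561). Cdk2 fell by 1.32 ± 0.27 in LGR5- and by 1.09 ± 0.27 in LGR5+ cells. Skp2 and Cks1b, which encode parts of the ubiquitin ligase that removes p27, fell by 1.65 ± 0.28 and 1.18 ± 0.22 in LGR5- cells (adjusted P = 0.0014 and 0.00258) and by 1.28 ± 0.28 and 1.20 ± 0.22 in LGR5+ cells (adjusted P = 0.0056 and 0.00181). Tfdp2, a dimer partner of E2Fs, fell by 0.85 ± 0.19 in LGR5- and by 1.06 ± 0.19 in LGR5+ cells (adjusted P = 0.00651 and 0.00139).

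The inhibitors related to Cdkn2a and Cdkn2b were measurable. Cdkn2c, which encodes p18, fell by 0.70 ± 0.23 in LGR5- and by 0.96 ± 0.23 in LGR5+ cells (adjusted P = 0.0496 and 0.00988). Its LGR5- call was lost without any 1 library other than treated replicate 1, and its LGR5+ call without untreated replicate 3 or treated replicate 2 or 3. Cdkn2d, which encodes p19Ink4d, fell by 1.16 ± 0.25 in LGR5+ cells (adjusted P = 0.0056) and was at -0.72 ± 0.25 in LGR5- cells (adjusted P = 0.0667). Cdkn1c, a relative of Cdkn1b, was not called in either (-0.04 ± 0.33 and -0.18 ± 0.33). The kinase genes of the D cyclins were not called either, with Cdk4 at -0.59 ± 0.24 and -0.38 ± 0.24 and Cdk6 at 0.41 ± 0.20 and 0.53 ± 0.20 in LGR5- and LGR5+ cells.

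Of 20 target genes of E2F, all tested, 18 fell in LGR5- cells, beside 7.11% of all genes tested, and 7 in LGR5+ cells, beside 6.37%, and 0 rose. In the test of the difference between these responses, 0 of the 20 were called. Both counts moved with single libraries and with the processing. In LGR5+ cells 16 fell without treated replicate 1, beside 6.69% of genes, and 3 or 4 without any 1 of the other libraries, beside 2.22 to 4.62%. In LGR5- cells 20 fell without treated replicate 1, beside 7.54%, 18 without untreated replicate 3, beside 9.88%, and 7 to 10 without any 1 of the other libraries, beside 3.68 to 4.41%. Without both LGR5- libraries numbered 3 it was 9, beside 7.41%, and without both treated libraries numbered 1 it was 20 in either population, beside 7.15% (LGR5+) and 7.63% (LGR5-). With the replicate number as a block 19 fell in LGR5+ and 20 in LGR5- cells, beside 7.92% and 8.69%. Without a filter 7 fell in LGR5+ and 9 in LGR5- cells, beside 4% and 3.58%. By DESeq2 13 fell in LGR5+ and 18 in LGR5- cells, beside 9.09% and 9.05%. With only the libraries compared 10 fell in LGR5+ and 12 in LGR5- cells, beside 12.1% and 3.52%. The median log2 fold change of the 20 genes was -1.49 in LGR5- cells, beside -0.05 over all genes, and -1.07 in LGR5+ cells, beside -0.02. All 20 had a negative value in both populations, as did 8682 (LGR5-) and 8277 (LGR5+) of the 16157 genes. Cdc6 and Rrm2 were the pair not called in LGR5- cells (-1.32 ± 0.67 and -1.36 ± 0.55). Gins1, which encodes a subunit of the replicative helicase, fell by 1.98 ± 0.34 in LGR5- and by 1.56 ± 0.34 in LGR5+ cells (adjusted P = 0.00168 and 0.00571). Chek1, a checkpoint kinase gene, fell by 1.69 ± 0.30 and by 1.47 ± 0.30 (adjusted P = 0.00203 and 0.00383), and Gmnn, an inhibitor of replication licensing, by 1.42 ± 0.26 and by 1.33 ± 0.26 (adjusted P = 0.00233 and 0.00268). Tyms encodes thymidylate synthase, the enzyme that 5-FU inhibits. It was at 163 to 240 CPM in untreated and 71.8 to 101 CPM in treated LGR5- cells and fell by 1.38 ± 0.27 (adjusted P = 0.00347), and it fell by 1.04 ± 0.27 in LGR5+ cells (adjusted P = 0.0158). The LGR5+ call of Tyms was lost without untreated replicate 1 or treated replicate 2 or 3 (adjusted P up to 0.0968).

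**Figure D4:**
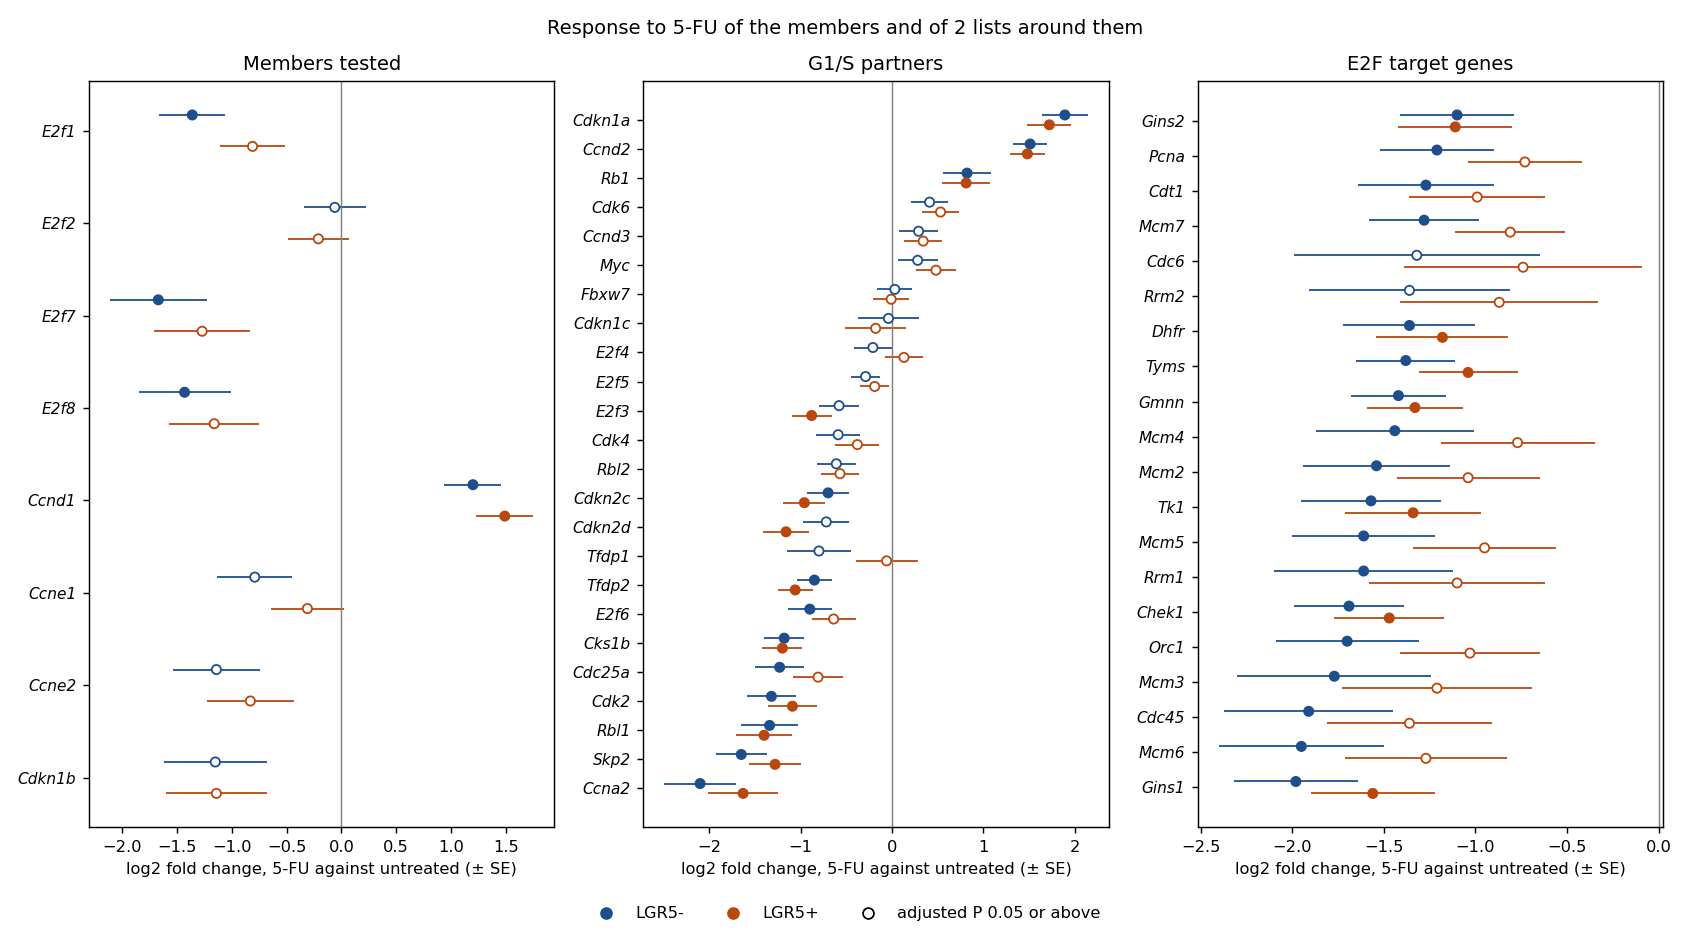
Log2 fold change with 5-FU (x axes; bars, SE) of the 8 tested members, the 24 partner genes and the 20 E2F target genes, in LGR5- (blue) and LGR5+ (orange) cells. Filled points have an adjusted P under 0.05. All 20 target genes lie below 0 in both populations, whereas Ccnd1, Ccnd2, Cdkn1a and Rb1 are the filled points above 0.

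Mdm2, a p53 target like Cdkn1a, rose by 1.56 ± 0.19 in LGR5- and by 1.91 ± 0.19 in LGR5+ cells (adjusted P = 0.000123 and 0.000017). The summed bile duct markers moved with 5-FU as well, from 1140 to 1390 CPM untreated to 2750 to 6690 CPM treated in LGR5- cells and from 1390 to 1650 to 6510 to 10500 CPM in LGR5+ cells, with all 5 markers above the 3-read limit in every library. The 4 epithelial markers summed to 2710 to 3820 CPM in untreated and 3660 to 8100 in treated LGR5- cells, and to 3590 to 3880 and 8200 to 11100 in LGR5+ cells. The 5 alveolar markers summed to 3500 to 17400 and 4030 to 6150 CPM in LGR5- and to 4950 to 15800 and 2730 to 5730 CPM in LGR5+ cells, in the same order. The 6 hepatocyte markers, of which 1 was above the 3-read limit in every library, summed to 11.2 to 22.6 CPM in untreated and 28.6 to 56.8 in treated LGR5- cells, and to 12.2 to 20 and 26.3 to 56.7 in LGR5+ cells, without overlap. The 5 fibroblast markers, of which 2 were above that limit in every library, were lower in treated LGR5+ cells without overlap, at 48.2 to 49.5 CPM untreated and 26.2 to 42.6 treated, and overlapped in LGR5- cells, at 40 to 49.4 and 43.1 to 60.6. The 4 endothelial markers summed to 1.7 to 4.18 CPM over the 12 libraries, with overlap in both populations. Their part in the changes of the members was not tested.

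The genes whose log2 CPM followed each member most closely over the 12 libraries were found by Pearson correlation. All 12 points share the difference between treated and untreated groups, so that any gene with a like response to 5-FU ranks high. For E2f1 they were Pola2 (r = 0.994), Asf1b (0.99) and Mcm5 (0.989), which encode a DNA polymerase subunit, a histone chaperone and a helicase subunit. For E2f7 they were Mms22l (0.991), Exo1 (0.988) and Ncapg2 (0.988), and for E2f8 Lig1, Exo1 and Cdc45, each at 0.992, so that the exonuclease gene Exo1 was named for both repressors. Ccne2 was followed by Lrr1 (0.98), by E2f7 itself (0.971) and by Mms22l (0.944), and Ccne1 less closely by Slbp (0.945), Pcna (0.933) and Lrr1 (0.93). The nearest to Ccnd1 were no replication genes but the lamin gene Lmna (0.992), the keratin gene Krt20 (0.989) and Cap1 (0.988), which encodes an actin regulator. Cdkn1b was nearest to Gzf1 (0.973), Gm3200 (0.966) and Syne2 (0.963). E2f2 had the weakest likeness, with Gm7129 (0.9), Armcx2 and Myo3b (each 0.881).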

How the data were processed

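Sorted organoid cells gave RNA that was converted to cDNA with SMARTer chemistry and read as pairs. The authors deposited 1 table of raw read counts per gene for the 12 libraries. The submitters' processing notes name HISAT2, HISAT, TopHat2, HTSeq and mm8, without roles or versions. How shared or antisense reads were counted is not given in the sources used here, and positions on GRCm38 describe the GENCODE M21 annotation, not the counting.

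Groups follow the labels. Counts were tested in R 4.3.3 with edgeR 4.0.16 (filterByExpr, TMM, robust quasi-likelihood over all 12 libraries with 4 group means, Benjamini-Hochberg adjustment over 16157 genes); SE is the log2 fold change over the square root of F. The script was tested on simulated data. Alternatives were DESeq2 1.42.0, other scalings and filters, the libraries compared only, the replicate number as a block, the study's thresholds, and each library left out. Libraries of a group differed by more than sampling noise. Totals of 13750591 to 19323514 reads set the precision, and limits for counts of 0 cover counting error only.

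The numbers in the labels were checked as pairs: deviations from the group means of same-numbered treated LGR5+ and LGR5- libraries correlated at 0.571, 0.217 and 0.304, so that those are taken as paired by the data, while untreated ones gave 0.481, -0.119 and 0.223. The block changed no member's call between the populations.

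The members and lists were chosen with earlier results of these data known. Named from the lists were up to 6 partners and 4 target genes with the smallest P among called genes whose groups do not overlap, then Cdkn1a, Mdm2 and Lgr5, and the 3 genes most correlated with each tested member (log2 CPM, prior count 2). Other partner genes, Cdc6, Rrm2 and the neighbours of Cdkn2a were named after their values were seen.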

Additional observations from a re-analysis of the deposited data

How the results depend on the processing

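Neither Ccnd1 nor E2f1 passed the study's thresholds. In the other alternatives Ccnd1 was called higher in all 15 for LGR5+ cells and all 16 for LGR5- cells, and E2f1 was called lower in all 16 for LGR5- cells. In LGR5+ cells, 1 member was called by the test as planned (16% of all genes), 0 by the study's thresholds (7.23%), 3 with only the libraries compared (26.7%), 4 by DESeq2 (E2f1, E2f7, E2f8 and Ccnd1; 20.6%), 5 without both 5-FU libraries numbered 1 (15.3%) and 1 to 5 when 1 library was left out (8.22 to 14.9%). In LGR5- cells, 4 were called (15.4%), against 1 by the study's thresholds (E2f7; 7%), 2 without a filter (8.58%), 2 without both libraries numbered 3 (16.9%), 7 without both 5-FU libraries numbered 1 (14.8%) and 2 to 6 when 1 library was left out (9.36 to 20.8%). Fits on the libraries compared with the block, and those without the libraries numbered 3 or 1, were chosen after seeing the data. With a lone pair of libraries left in a group, the spread was taken from all groups. The cause of these shifts was not tested.

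With the replicate number as a block, 5 members were called in LGR5+ cells, beside 18.4% of genes (6 with only the libraries compared, beside 22%), and 6 in LGR5- cells, beside 17.9% (6 likewise, beside 16.5%). For these comparisons the samples share only a number, since not every same-numbered correlation was over 0.1. Between LGR5+ and LGR5- cells the block gave 0 members, as without it. In that blocked fit E2f8 differed by 0.03 in untreated cells and Ccne2 by -0.04 in treated cells (-0.10 with only the libraries compared), with signs turned.

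Of all genes, 1561 rose and 1029 fell in LGR5+ cells, against 2206 and 1839 with only the libraries compared, and 1003 to 1373 and 370 to 1115 when 1 library was left out. In LGR5- cells 1341 rose and 1148 fell, against 741 and 541, and 891 to 1797 and 608 to 1621. Between treated populations 0 were called, against 64 higher and 28 lower by DESeq2, 10 and 1 without a filter, and 214 and 237 in the blocked fit on the libraries compared.

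All other turned signs were of values not called under the alternative or as planned. E2f2 with 5-FU went to 0.04 in LGR5- cells without both libraries numbered 3, with ranges of -0.22 to 0.10 in LGR5- and -0.51 to 0.02 in LGR5+ cells when 1 library was left out. Between untreated populations, E2f2 and E2f8 went to 0.01 without a filter, E2f8 to 0.01 with library size only and Ccnd1 to -0.03 without both libraries numbered 3. Leaving out 1 library gave -0.25 to 0.04 (E2f1), -0.11 to 0.04 (E2f2), -0.17 to 0.08 (E2f8), -0.03 to 0.34 (Ccnd1) and -0.25 to 0.41 (Cdkn1b). Between treated populations, without both libraries numbered 3, E2f7, E2f8, Ccne1, Ccne2 and Cdkn1b went to -0.14, -0.10, -0.02, -0.23 and -0.36. Ccne2 went to -0.07 and Cdkn1b to -0.08 with library size only, to -0.03 and -0.02 with only the libraries compared, and Ccne2 to -0.25 without both 5-FU libraries numbered 1. Leaving out 1 library gave -0.47 to 0.06 (E2f2), -0.55 to 0.78 (E2f7), -0.30 to 0.88 (E2f8), -0.19 to 0.47 (Ccne1), -0.63 to 0.42 (Ccne2) and -0.40 to 0.69 (Cdkn1b). The difference between responses ranged from -0.45 to 0.08 (E2f2), -0.33 to 1 (E2f7), -0.29 to 0.89 (E2f8), -0.36 to 0.70 (Ccne2) and -0.42 to 0.67 (Cdkn1b). That of Cdkn1b was -0.06 without a filter, -0.00 with at least 10 reads in every library, -0.01 with DESeq2's size factors and by DESeq2, -0.08 with library size only and -0.77 without both libraries numbered 3.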
